A study of Mus musculus with 2 samples.

Results

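The genes described here are products of the secretory epithelium of the mouse ventral prostate. They were chosen by name: Sbp, Pbsn, Msmb, Azgp1, Ceacam10, Agr2, Pigr and Tspan8, through every probe set that the platform annotation assigns to exactly 1 gene symbol. Of these 8 genes, 7 had such a probe set, 15 probe sets in all, out of 34945 single-symbol probe sets for 18193 genes. Sbp had none, because the probe set that carries its name is annotated for Sbpl as well.

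The RNA came from ventral prostates of 3-month-old male C57BL/6J mice, and 1 array was hybridised for each genotype, 2 arrays in all. One sample was U19/Eaf2 +/+ and the other was labelled U19/Eaf2 -/-. The design of the deletion, the number of animals behind each sample and any pooling were not given in the sources used here. A single array in each group allows no test, so no p-value or replicate error is given and every difference describes these 2 arrays only.

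The mouse ventral prostate is an androgen-dependent gland whose tall luminal cells fill the ducts with fluid for the ejaculate. Most secreted proteins enter the endoplasmic reticulum, are folded there, pass through the Golgi and leave at the apical surface. Sbp is a spermine-binding protein of prostatic fluid, probasin (Pbsn) a lipocalin and Msmb the small cysteine-rich beta-microseminoprotein. Azgp1 is zinc-alpha-2-glycoprotein, and Ceacam10 is a secreted member of the carcinoembryonic antigen family known from seminal vesicle. The remaining genes are secretory products only in a loose sense. Agr2 is a protein disulfide isomerase that acts inside the endoplasmic reticulum, Pigr is the receptor that carries polymeric immunoglobulin across epithelia and sheds its outer part as secretory component, and Tspan8 is a tetraspanin of the cell membrane.

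The probasin promoter is widely used to drive transgenes in prostate epithelium, so upstream sequence is shown for the lower-reading Pbsn, for the higher-reading Pigr and for Ceacam10, whose window held the most matches to the androgen receptor half-site. The 250 bases before the RefSeq start (GRCm38.p6) are printed 5′ to 3′ on the gene's strand: chrX:77853501-77853750 on the minus strand for Pbsn, chr1:130826434-130826683 on the plus strand for Pigr and chr7:24776917-24777166 on the plus strand for Ceacam10. Capitals mark AGAACA or its reverse complement TGTTCT, the half-site, and TATAAA, the TATA box letters on the gene's strand.
Pbsn: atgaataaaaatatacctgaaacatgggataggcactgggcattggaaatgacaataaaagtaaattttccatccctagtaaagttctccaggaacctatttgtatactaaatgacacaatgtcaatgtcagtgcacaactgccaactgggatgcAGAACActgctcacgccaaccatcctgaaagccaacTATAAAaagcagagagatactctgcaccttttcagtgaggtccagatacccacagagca
Pigr: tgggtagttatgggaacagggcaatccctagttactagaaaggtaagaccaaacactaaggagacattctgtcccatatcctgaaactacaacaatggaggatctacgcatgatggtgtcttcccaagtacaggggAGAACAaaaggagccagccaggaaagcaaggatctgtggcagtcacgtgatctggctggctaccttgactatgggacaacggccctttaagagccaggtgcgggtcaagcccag
Ceacam10: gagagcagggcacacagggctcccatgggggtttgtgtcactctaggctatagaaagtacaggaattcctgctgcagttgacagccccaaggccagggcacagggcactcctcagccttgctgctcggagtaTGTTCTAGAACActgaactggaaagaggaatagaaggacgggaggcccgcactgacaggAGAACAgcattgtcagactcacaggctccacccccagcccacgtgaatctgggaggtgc

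The half-site was found once in the Pbsn window, with its first base 95 bases before the start, and once in the Pigr window, 114 bases before. The Ceacam10 window held 3, of which TGTTCT and AGAACA stood side by side, starting 118 and 112 bases before the start. Among 32851 upstream windows of the same length in the RefSeq table, 16.1% held a half-site on either strand and 7.59% held TATAAA. The table held 10 windows for 7 of the 8 genes, and 5 of these windows had a half-site: both of the overlapping Ceacam10 windows, those of Pbsn and Pigr, and 1 of 3 for Sbp. The forkhead letters TGTTTAC, searched on both strands, were in the Tspan8 window and in 3.17% of all windows. These matches describe letters and do not show binding.

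The deposited values are linear probe-set signals in arbitrary units. The median over all probe sets was 177 in the wild-type sample and 154 in the sample labelled knockout. A signal of 166, the 50th percentile of both arrays pooled, served as a floor: a probe set that stayed under it on both arrays was not read as a measurement. Eaf2 itself read 691 in the wild-type sample against 702. Since its probe set may lie outside the deleted part, it checks nothing about the label, and the sample is called the array labelled knockout. The ratio of 3' to 5' control signals, a guide to RNA quality, was 1.25 (wild type) and 1.65 (labelled knockout) for Actb and 0.714 and 0.847 for Gapdh. Its part in the differences below was not tested.

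Of the 15 member probe sets, 12 reached the floor on at least 1 array, and 6 genes therefore entered. The 3 that did not were all of Ceacam10. From Pbsn, Msmb, Azgp1, Pigr and Agr2, 6 probe sets were among the 451 probe sets that made up the brightest 1% of the array. Brightness depends on the probes as well as on the transcript, so ranks are given for each probe set and do not order the genes by expression.

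**Figure D1:**
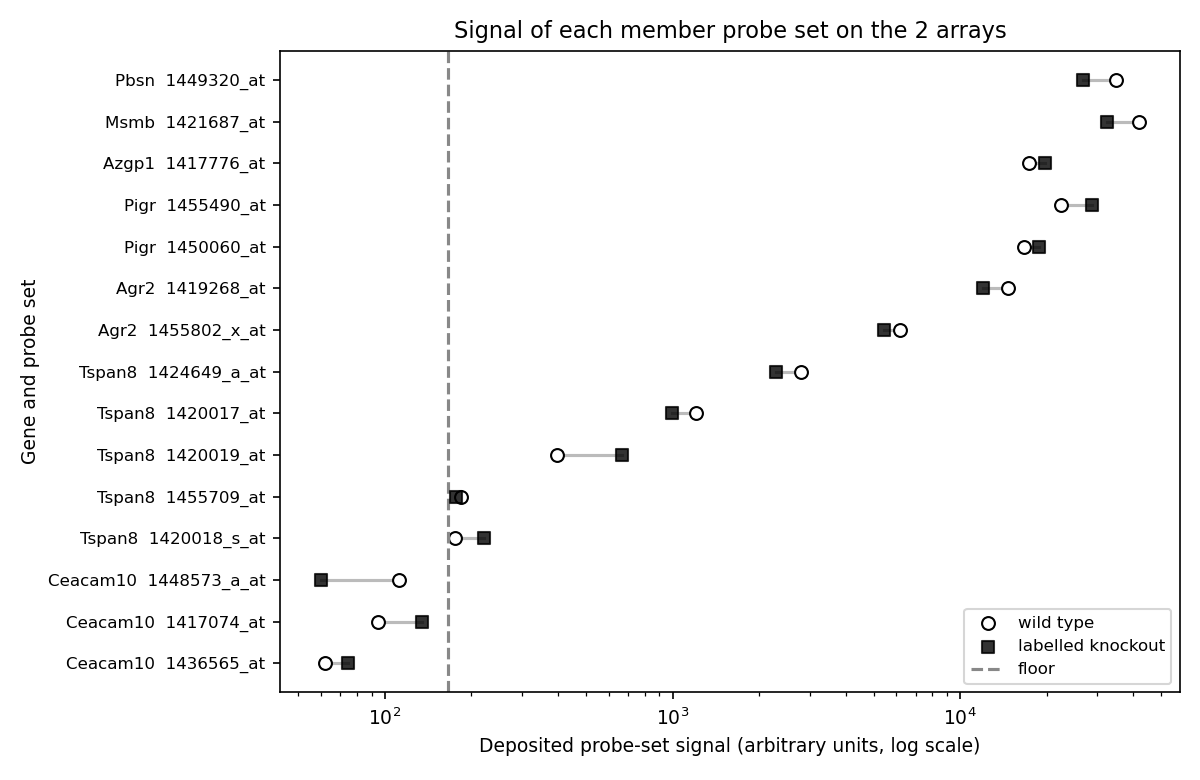
Deposited signal (arbitrary units, log axis) of each of the 15 member probe sets, with an open circle for the wild-type array, a filled square for the array labelled knockout and a dashed line at the floor of 166. Pbsn and Msmb read lower and Azgp1 and Pigr higher on the array labelled knockout, and all 3 Ceacam10 probe sets lie under the floor.

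Pbsn and Msmb, both secreted into prostatic fluid, read lower on the array labelled knockout by nearly the same amount. The Pbsn signal was 34870 in wild type against 26812, 1.30-fold lower, with a log2 ratio of -0.38. Its rank, counted from the brightest of 45037 non-control probe sets, went from 58 to 112. Msmb gave 41774 and 32270, 1.29-fold lower, with a log2 ratio of -0.37, and its rank went from 24 to 75. Each had 1 probe set, so neither difference could be set beside a second reading of the same gene. Among the brightest 1% of probe sets, 5.76% had a lower log2 ratio than Pbsn and 6.43% a lower one than Msmb.

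Pigr and Azgp1 read higher on the array labelled knockout. Pigr gave 22413 and 28726 in its brighter probe set, 1.28-fold higher with a log2 ratio of 0.36, and its rank went from 171 to 97. Its other probe set gave 16688 and 18838, a log2 ratio of 0.17, so both read the same way but differed in size. Azgp1, in its only probe set, gave 17293 and 19651, 1.14-fold higher with a log2 ratio of 0.18. Its rank went from 253 to 214.

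Agr2 read lower in both of its probe sets. The brighter gave 14696 in wild type against 12043, 1.22-fold lower with a log2 ratio of -0.29. The other, of a type with a suffix in its name that can cross-hybridise, gave 6161 and 5422, a log2 ratio of -0.18. The rank of the brighter probe set went from 307 to 399.

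Tspan8 had 5 probe sets, which did not share a direction. The brightest gave 2786 and 2297, a log2 ratio of -0.28, and the next 1205 and 994, also -0.28. Another gave 397 and 665, 1.67-fold higher with a log2 ratio of 0.74. The remaining 2 lay close to the floor, at 176 and 221 (0.33) and at 185 and 177 (-0.06). In all, 3 probe sets read lower and 2 higher on the array labelled knockout. The probe sets at -0.28 (the dimmer), 0.74 and 0.33 are annotated to the same source sequence, so opposite readings occurred within 1 annotated source. No direction is given for the Tspan8 gene as a whole, and it counts as lower below only through its brightest probe set.

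Ceacam10 stayed under the floor. Its 3 probe sets read 94.96 and 135, 112 and 60.0, and 62.0 and 74.2 for wild type and labelled knockout. The readings were higher in 2 and lower in 1. Detection calls were not used here, so these signals could not be told from background. Whether Ceacam10 was transcribed in these samples is thus not settled by these signals, and no ratio is drawn from it in the reported processing.

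The probe set annotated for both Sbp and Sbpl was the brightest in the wild-type sample, at 63443, and ranked 2 in the sample labelled knockout, at 65343. It cannot be assigned to either gene and entered no gene result. It was close to the top of the arrays, whose highest signals were 63443 and 65368, and whether the scanner's range limited such readings was not given in the sources used here.

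**Figure D2:**
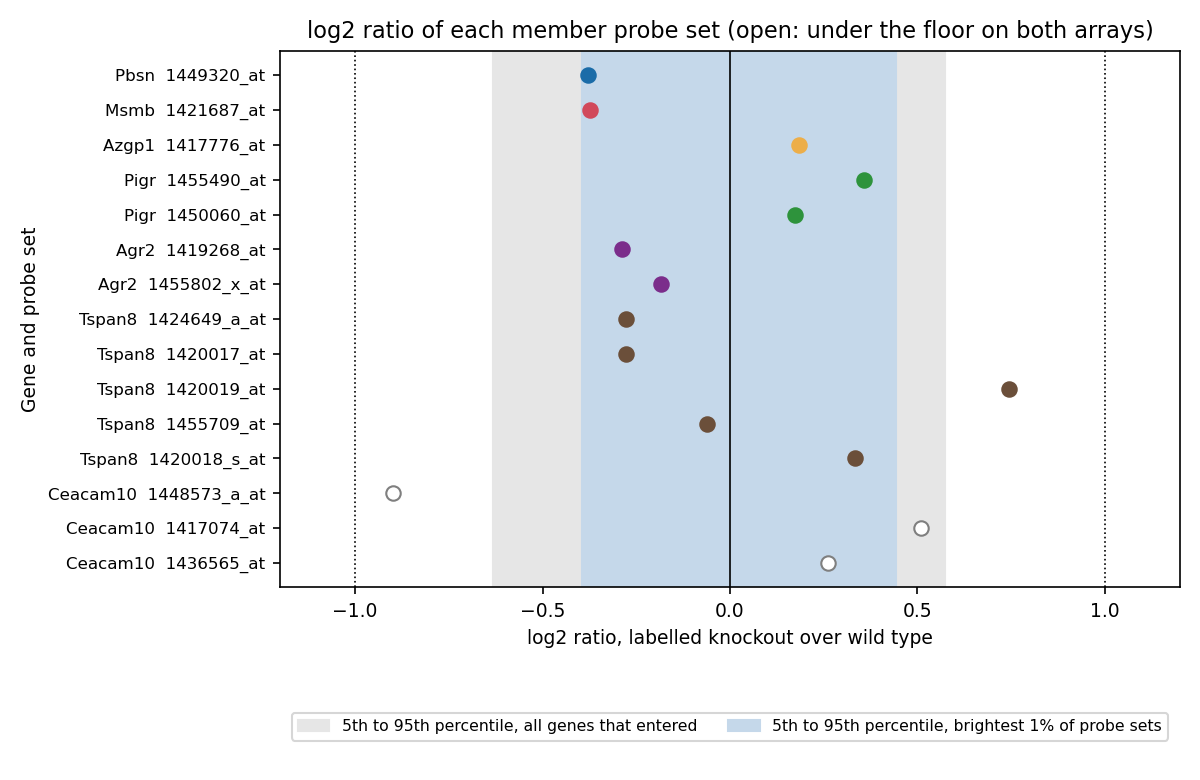
log2 ratio, labelled knockout over wild type, of each member probe set (open circles: under the floor on both arrays). Shading spans the 5th to the 95th percentile over all genes that entered (-0.63 to 0.57) and over the brightest 1% of probe sets (-0.40 to 0.44), and dotted lines mark 2-fold. Among probe sets above the floor, a Tspan8 probe set at 0.74 lies outside both spans and all others lie inside both.

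Of the 6 member genes that entered, each represented by its brightest probe set, 0 differed by 2-fold, where 1.47% of all 11671 genes that entered did. At 1.5-fold the member count was also 0, against 11.0% of all genes. Of the 6 genes, 5 lie in the brightest 1% of probe sets, where 2 of 451 differed by 2-fold. The spread of log2 ratios was smaller there, with an SD of 0.277 against 0.373 over all genes that entered. Lower readings were found for 4 of 6 (Pbsn, Msmb, Agr2 and Tspan8), for 53.0% of all genes and for 50.6% of the brightest 1% of probe sets. The median log2 ratio was -0.28 over the 6 genes, -0.03 over all genes that entered and -0.0014 over the brightest 1% of probe sets. The member value lies between Agr2 and the brightest Tspan8 probe set, and it was smaller in other summaries: -0.12 over the 12 member probe sets that entered, -0.15 with each gene at the median of its probe sets and -0.13 as a mean over genes. The 6 log2 ratios ran from -0.38 to 0.36.

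**Figure D3:**
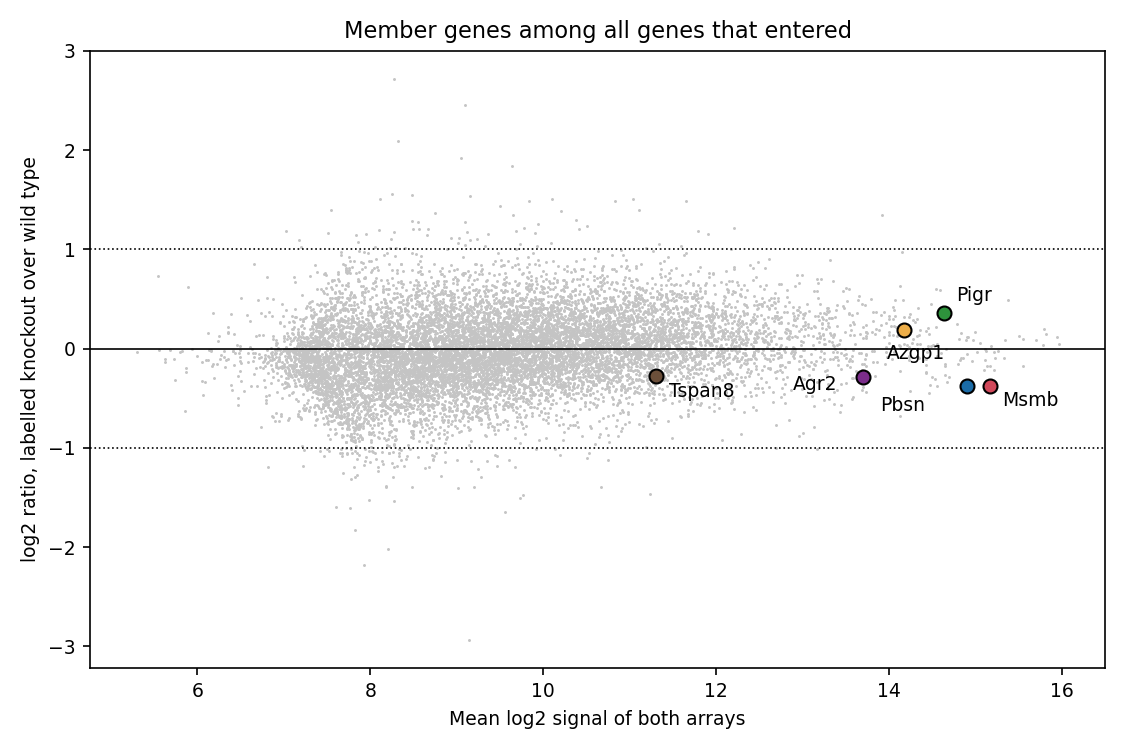
log2 ratio, labelled knockout over wild type, against the mean log2 signal of both arrays for all 11671 genes that entered (grey) and the 6 member genes (coloured, 1 probe set each). Dotted lines mark 2-fold. Of the member genes, 5 lie at the bright end, Tspan8 lies lower, and none reaches a dotted line.

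The only error these data hold is the spread between probe sets of the same gene, which leaves out animals, dissection and hybridisation. It also leaves out any shift that the probe sets of a gene share, so a value above it is a description and not a test. The SD of the log2 ratio within a gene was 0.357 over 4497 genes with several probe sets that reached the floor in each sample. It was 0.287 within the brightest 10% and 0.187 within the brightest 1%, the last from 55 genes. The log2 ratios of Pbsn, Msmb and Pigr were just above the SD over all brightness levels, and those of Azgp1, Agr2 and Tspan8 were below it. Against the SD of the brightest 1%, where all but Tspan8 lie, Pbsn, Msmb, Pigr and Agr2 were above and Azgp1 was below. For Pigr and Agr2 this holds for the brighter probe set only. Their other probe sets, at 0.17 and -0.18, were below each of these SDs. For a difference between 2 probe sets of a gene, the corresponding SD was 0.505 over all brightness levels, 0.406 within the brightest 10% and 0.264 within the brightest 1%.

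The ratio of 2 members within an array does not depend on a scale factor for the whole array. The ratio of Pigr to Pbsn was 1.67-fold higher in the sample labelled knockout, 0.74 on the log2 scale, and that of Pigr to Msmb 1.66-fold higher. The ratio of Msmb to Pbsn shifted by 1.005-fold only. Of the 15 pairs of member genes, 6 differed by more than 0.505, namely Pigr against Pbsn, Msmb, Agr2 and Tspan8 and Azgp1 against Pbsn and Msmb. That SD is for probe sets of 1 gene and is not an error for a pair of genes. With the other Pigr probe set the count was 4, and against 0.406 or 0.264 it was 8 with either. The 15 pairs reuse the same 6 log2 ratios. The share of pairs of all genes past these values was not computed. The SD of the log2 ratio over all genes that entered was 0.373, so these counts are not read as particular to the members. The pairs with Tspan8 rest on its brightest probe set, and the log2 ratio of 0.74 in another is above that of Pigr. Such a shift describes unequal readings on these 2 arrays. It does not show that either gene of the pair changed, or which.

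Other secretions of the male accessory glands did not share one direction. Of 14 listed genes on the array, 10 entered, 6 lower and 4 higher, with a median log2 ratio of -0.05. Spink1, a trypsin inhibitor of prostatic and pancreatic fluid and the brightest gene when log2 signals of both arrays are averaged, read 62610 and 64718. By that average, the next genes were Eef1a1, a translation elongation factor, at a log2 ratio of 0.12, 9530002B09Rik at 0.14 and Slc12a2, the sodium-potassium-chloride cotransporter of secretory epithelia, at 0.20. The ribonuclease Rnase1 gave 2520 against 1374, a log2 ratio of -0.88. The inhibitor Spink8 was at -0.46. The protease inhibitor Spink5 was at 0.59. Lipocalin 2 (Lcn2), an iron-siderophore carrier and a relative of Pbsn, read 409 and 883, 2.16-fold higher, the only gene of this list past 2-fold. Of the 12 lipocalin relatives of Pbsn on the array, 5 entered, 3 lower and 2 higher, with a median of -0.40, and besides Lcn2 the retinol carrier Rbp4 was at -0.52. Of 10 listed products of other lobes and of the seminal vesicle on the array, 8, among them Svs2, Svs4 and Svs5, did not reach the floor. Over all genes, 11671 of 18193 entered. Tgm4, a transglutaminase of the anterior and dorsal lobes, read 274 and 121. This short list does not cover every lobe, and whether tissue of other lobes was present was not tested.

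Among the relatives of Ceacam10, the adhesion molecule Ceacam1 was well above the floor. Its brightest probe set read 22652 and 14159, 1.60-fold lower. Of its 8 probe sets, 7 were lower and 1 was higher. The higher, at 14845 and 15088, was 1 of 2 without a suffix in the name, so the size of any Ceacam1 difference depended on the probe set. Ceacam2, a close paralogue, read 395 and 106, the second under the floor, at least 2.38-fold lower. Of 10 relatives on the array 4 entered, 3 lower and 1 higher, with a median of -0.59. Tetraspanin relatives of Tspan8 had 13 of 24 lower, a median of -0.03 and 0 past 2-fold.

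Partners of Pigr and of Agr2 were read from fixed lists. The list for Pigr held immunoglobulin genes, whose products include its cargo, and plasma cell genes that are not cargo, among them Xbp1 and Sdc1. Of its 8 genes that entered, 6 were lower, where 53.0% of all genes were lower. Their median was -0.15, with 0 past 2-fold. The joining chain Jchain read 671 and 798, a log2 ratio of 0.25. The immunoglobulin A heavy chain Igha read 556 and 310, a log2 ratio of -0.84, and all 3 of its probe sets were lower. All 3 have a suffix in the name, which for some types marks possible cross-hybridisation, so they are not taken as independent readings. Ighm was the highest gene of the list, at 0.53, with its 3 other probe sets between -0.70 and -0.24. Of the folding factors and disulfide isomerases around Agr2, 9 of 18 were lower and 9 higher, with a median of -0.0015. Pdia4, an isomerase, read 1364 and 3584, 2.63-fold higher, with its other probe set at -0.08, and Sdf2l1, a chaperone cofactor, was at -0.68. Agr3, the closest relative of Agr2, did not reach the floor. Enzymes and regulators of polyamines, the ligands of Sbp, had a median of 0.13, with 4 of 7 higher, from Srm, spermidine synthase, at -0.29 to Sat1, the acetyltransferase of polyamine breakdown, at 0.34.

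Cell type markers bear on how much of the tissue was secretory epithelium. In bulk RNA, fewer secretory cells and less RNA per cell cannot be told apart. Luminal markers, which include cell-surface and transcription factor genes of the secretory cells, had 8 of 14 lower, where 53.0% of all genes were lower. Their median was -0.02 and their summed signals were 105369 and 109929. Among them Spdef, a transcription factor of secretory cells, was at -0.56 and Cldn3, a tight-junction protein, at -0.46, whereas Cdh1, the epithelial cadherin, was at 0.37 and Cldn4 at 1.06. Smooth muscle markers had 11 of 12 lower, a median of -0.41 and summed signals of 66463 and 51807. Fibroblast markers had 8 of 10 lower, with a median of -0.32 and sums of 36366 and 33892. Adipocyte markers had 3 of 5 higher and sums of 1566 and 3176. Car3, a carbonic anhydrase of fat, gave 234 and 1278, a log2 ratio of 2.45, with its other probe set at 1.19. Fabp4 was at 0.84, with its other probe set at 0.03, whereas Plin4 (-0.31) and Retn (-0.18) read lower. Urothelial markers had 3 of 4 lower and sums of 6703 and 4804, Upk1a giving 4829 and 3413. Upk1b was at -0.58, with its 3 other probe sets between -2.27 and -2.03, and Upk2 was higher, at 0.17. Basal markers had 2 of 4 lower and leukocyte markers 2 of 6. All these sums lay on the same 2 arrays as the member readings, and their part in them was not tested.

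Genes of the androgen axis, on which secretion in this gland depends, had 7 of 10 higher and a median of 0.12. The other 3 were lower, where 53.0% of all genes were lower. Camkk2, a calcium-dependent kinase, was at 0.58 and Tmprss2, a membrane protease, at 0.53, each with an opposite probe set. Ndrg1, a differentiation-related gene, was at -0.45, also with an opposite probe set, and Pmepa1 read 246 and 166, just under the floor on the second array.

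**Figure D4:**
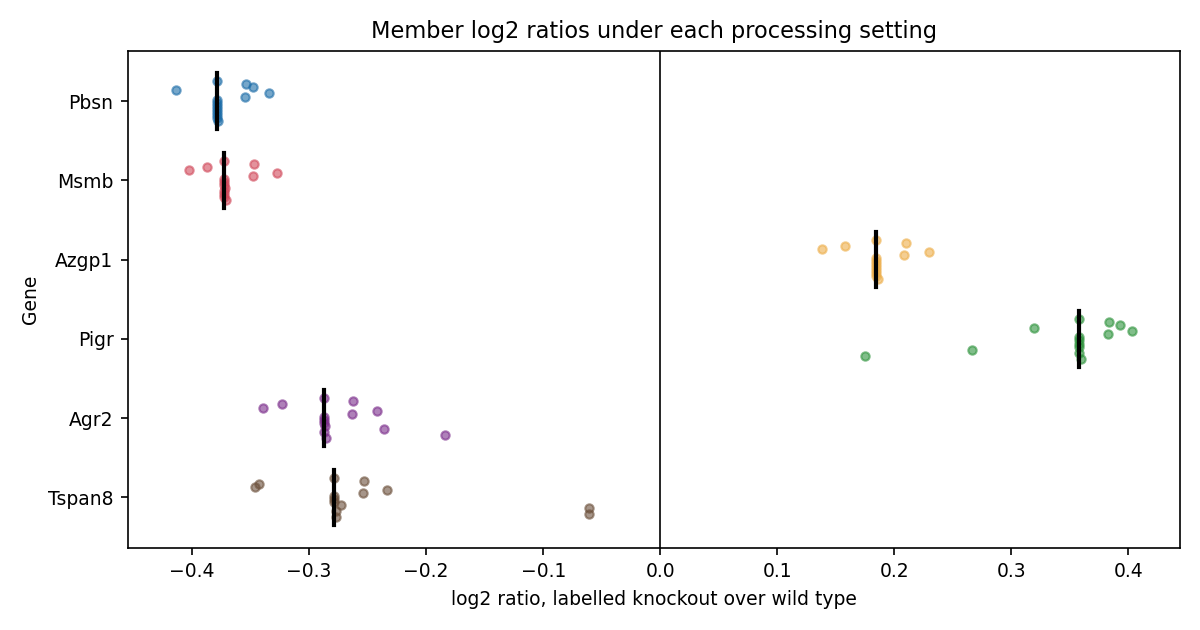
log2 ratio, labelled knockout over wild type, of each of the 6 member genes under the reported processing (black bar) and 13 alternatives (points, spread vertically for visibility). Pbsn stayed between -0.41 and -0.33 and Pigr between 0.17 and 0.40, and no point crossed 0; no alternative used a higher-reading Tspan8 probe set.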

How the data were processed

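The deposited table held linear signal intensities for 45101 probe sets on 2 arrays. Per the submitters' processing notes the authors used GCOS 1.4; its settings were not given in the sources used here. With 2% of probe sets trimmed at each end, the mean was 500.0 on both arrays, which fits 1 scale factor per array. Names came from the platform annotation. Of 45037 non-control probe sets, 34945 had 1 symbol, 932 several and 9160 none, and 34741 were matched by Entrez ID to the RefSeq table of GRCm38.p6, with 0 symbols differing.

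Signals under the floor, the 50th percentile, were raised to it. A gene entered when 1 array reached the floor and took the probe set of highest mean log2 signal. No pseudocount was used, and no test was possible. The number of arrays limits the precision. Named genes were the members, the brightest genes, Eaf2, and in each of 16 lists up to 2 genes at each end of the log2 ratio; not all were printed. The members and lists were chosen with earlier results of these data known. Alternatives covered scaling, floor, pseudocount, probe set choice and fold threshold. Calculations were tested on simulated data. Python 3.11.15, pandas 2.3.3 and statsmodels 0.14.6 were used.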

Additional observations from a re-analysis of the deposited data

Results flagged for a closer look

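The probe set annotated for both Sbp and Sbpl lies outside the gene results. Its log2 ratio, labelled knockout over wild type, was 0.043, and its signal was above the wild-type reading by that amount.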

How the results depend on the processing

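The values taken for the 6 member genes kept their sign in the 13 alternatives run for each: Pbsn from -0.41 to -0.33, Msmb from -0.40 to -0.33, Agr2 from -0.34 to -0.18, Tspan8 from -0.35 to -0.06, Azgp1 from 0.14 to 0.23 and Pigr from 0.17 to 0.40. Of the 13, 7 moved the values of Pbsn, Msmb and Azgp1; the other 6, on floor and probe set choice, could not, since each gene has 1 bright probe set. For Agr2 and for Pigr both probe sets read the same way, so probe set choice could not turn their sign. None of the alternatives used a Tspan8 probe set that read higher, so the sign for Tspan8 says nothing of that gene's direction. The Tspan8 value nearest 0 came with the median over probe sets and with the probe set closest to 0. The median over member genes ranged from -0.34 to -0.12 in 14 alternatives, the last with the probe set closest to 0, and was -0.13 as a mean. At a threshold of 1.5-fold the member count was 0 in the reported processing, so at 3-fold it could only be 0. The count past 2-fold was 0 in every alternative run. Over all genes that count moved from 172 to 708 with the floor at the 30th percentile, to 62 with it at the 70th, to 2851 with no floor and to 711 with no floor and a pseudocount of 50 together. Ceacam10 entered at the 30th-percentile floor and wherever no floor was set, with or without the pseudocount. In those settings its ratio counted in the median over member genes. It was 0.51 without the pseudocount, from signals that could not be told from background. The median wild-type percentile of the member genes' signals was 99.53 among non-control probe sets and 99.67 among single-symbol probe sets only. The brightest 1% as reference was chosen after seeing the data. No paired analysis was possible because each group held 1 array. Low signals were limited by background, and none of these settings stands in for a second animal.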
